A study of Mus musculus with 13 samples.

Results

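Tumor organoids and normal mammary organoids that had grown in the same basement membrane gel were compared by their RNA. The comparison took the 3 arrays of PyMT tumor epithelium in Matrigel and the 3 arrays of normal mammary epithelium in Matrigel that were run together as batch 2, which are 6 of the 14 arrays and 6 of the 13 samples of the series. Normal organoids came from the #3 and #4 mammary glands of FVB mice, whose age is not given in the labels. Tumor organoids came from MMTV-PyMT mice, in which the MMTV promoter, active mainly in mammary epithelium, drives the polyoma middle T oncogene, and only the largest tumor of each mouse was used, at 12 to 16 weeks, when the protocol describes the tumors as poorly differentiated carcinomas. Both tissues were broken down with collagenase and trypsin into multicellular epithelial fragments, and single cells were removed by differential centrifugation, with further rounds for the tumors as needed. All groups shared a medium of DMEM/F12 with insulin and transferrin that held 2.5 nM FGF2, a growth factor that drives branching of normal organoids, and all were collected on day 4. Matrigel is a laminin-rich extract of a mouse tumor's basement membrane, and the remaining groups of the series were embedded in rat tail collagen I gels at 3 mg/ml. Normal mice are called A, B and D below and tumor mice A, B and C; mice of different tissues were different animals, whereas within a tissue the titles give mice A and B of the normal group and A, B and C of the tumor group in both gels. The question was how tumor and normal epithelium differ in gene expression when their matrix is the same.

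The mammary duct has an inner layer of luminal cells, some of which sense estrogen and progesterone, and an outer layer of basal or myoepithelial cells, which contract and lay down basement membrane. Middle T is a membrane scaffold that binds Src family kinases and so switches on the ERK and phosphoinositide 3-kinase pathways, and tumors of this model progress from hyperplasia to carcinomas that lose hormone receptors. Fragments of tissue can carry stromal, vascular and immune cells into culture, so RNA of the gel culture is RNA of everything that stayed alive with the epithelium.

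All values below are log2 signals relative to the array's own 75th percentile, so that 0 is a fairly bright probe and each unit is a doubling. Differences are tumor minus normal, with ± giving the standard error of the fit (limma, 3 arrays a group). Of 18274 genes tested, 4700 (25.7%) were higher and 4735 (25.9%) lower in tumor organoids at an adjusted p under 0.05, so that 51.6% of all genes were called and a list with a like share shows nothing beyond it. The lists below were chosen with earlier results of these data known, so a larger share in a list is not independent support either. The difference reached 4-fold for 523 of the higher and 1592 of the lower genes. The values of the 2 groups did not overlap for 10527 of all genes (57.6%), so that a lack of overlap is common on these arrays. The median gene lay at 0.08, and the quartiles at -0.81 and 0.71. The tumor arrays were dimmer: their 75th percentile was 463 ± 96.3 signal units (SD, n = 3) against 956 ± 247 on the normal arrays, and 57.4 ± 1.11% of spots were well above background against 66.2 ± 2.81%. Spike-in probes stood 2.51 ± 0.17 log2 units above the percentile on tumor arrays and 0.63 ± 0.28 on normal arrays, so that scaling to them instead moves the median gene to -1.8, with 178 genes higher and 15779 lower. A normexp background correction gave 7061 genes higher and 2099 lower. Directions below are therefore relative to the bulk of genes on an array, and the part of the brightness gap in them was not tested. Arrays correlated at 0.965 to 0.985 within a group and at 0.887 to 0.942 between groups. Nothing in the labels tells whether the spread between mice of a group also holds technical spread.

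The label of epithelium held for both groups. The luminal markers Krt8 and Krt18, the keratins of simple epithelia, were among the brightest genes on all 6 arrays. Krt18 was at 8.31, 7.97 and 8.11 on the normal arrays and 9.12, 9.57 and 9.01 on the tumor arrays, a difference of 1.1 ± 0.19 (adjusted p = 0.000975). Krt8 differed by 0.82 ± 0.23 (adjusted p = 0.0127), and both calls depended on the scaling: with quantile normalization Krt18 differed by 0.02 and Krt8 by -0.22, and in the authors' deposited log2 values by 0.16 and -0.03. Over the 16 luminal markers, 8 were higher, 2 lower and 6 not called, with a median of 0.47; quantile normalization gave 5 higher and 6 lower. The largest differences were those of Cldn4 (2.99 ± 0.54), Krt7 (2.60 ± 0.40) and Cldn3 (1.47 ± 0.24), the claudins being strands of tight junctions and Krt7 a keratin of ductal epithelium. Kit, the receptor of luminal progenitors, was lower (-1.32 ± 0.28, adjusted p = 0.00298), while the luminal regulators Gata3 (-0.14 ± 0.20), Elf5 (-0.34 ± 0.29) and Ehf (-0.11 ± 0.23) were not called. Elf3, an epithelial ETS factor, was higher (1.42 ± 0.21, adjusted p = 0.000465). Cdh1, which encodes E-cadherin, was at 1.54, 1.74 and 1.36 on the normal arrays and 2.29, 1.24 and 0.52 on the tumor arrays, with no call (-0.20 ± 0.46, adjusted p = 0.733).

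**Figure D1:**
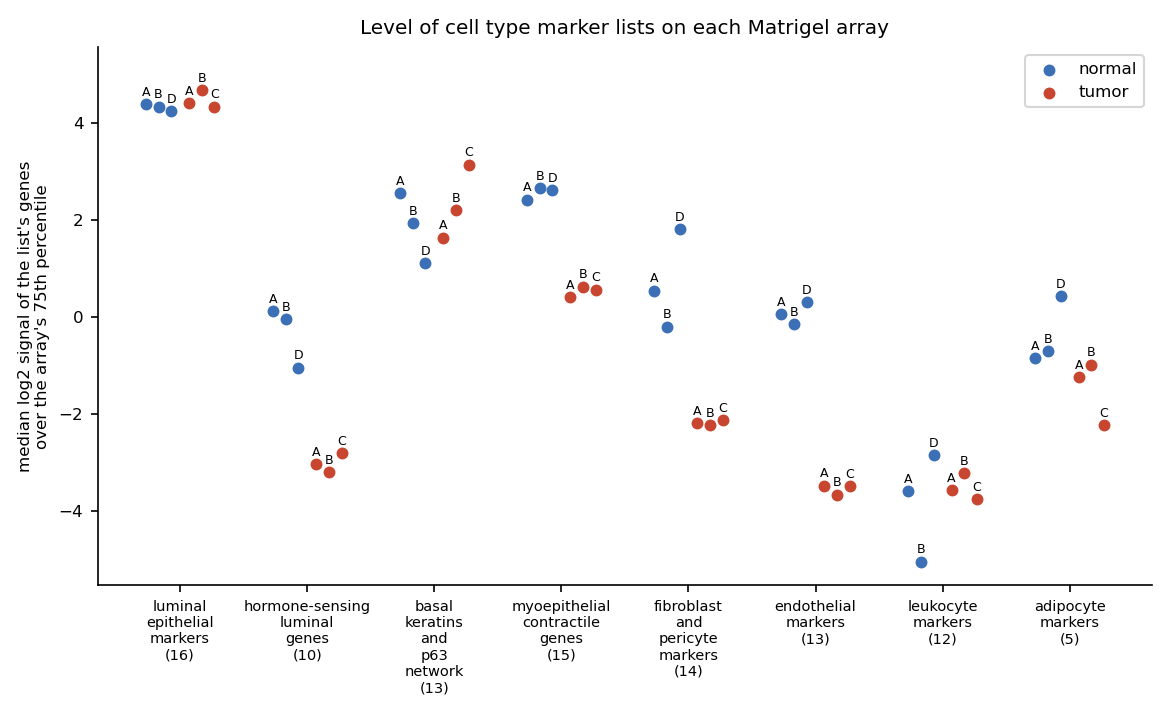
Median log2 signal over the array's 75th percentile (vertical axis) of 8 cell type marker lists on each of the 6 Matrigel arrays; each point is an array, letters name the mouse, blue is normal and red is tumor, and the number of genes stands under each list. Luminal medians lie between 4.24 and 4.67 on all arrays, while fibroblast and endothelial medians are lower on every tumor array than on every normal array.

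Genes known from the basal layer gave a split picture. Basal keratins varied more among mice than between tissues. Contractile genes, which are shared with vascular smooth muscle and pericytes, were far lower in tumor organoids. Krt14, the main basal keratin, was at 7.43, 6.63 and 4.45 on the normal arrays and 5.90, 7.62 and 8.22 on the tumor arrays. Krt5, its partner, was at 8.18, 7.42 and 5.47 on the normal arrays and 5.38, 7.03 and 6.49 on the tumor arrays. Normal mouse D and tumor mouse A had the lowest values of both keratins, the groups overlapped, and neither gene was called (adjusted p = 0.25 and 0.356). Both calls depended on the setting: without normal mouse D Krt5 was called lower (-1.5, adjusted p = 0.0343), as with the mouse letter as a block (-1.64, adjusted p = 0.03), and with slide as a fixed block Krt14 was called higher (2.9, adjusted p = 0.039). Trp63, the basal master regulator p63, was at 1.96, 1.83 and 1.31 on the normal arrays and 2.69, 2.11 and 3.13 on the tumor arrays, a difference of 0.94 ± 0.32 (adjusted p = 0.028) that passed but was lost under 10 of 28 alternatives, among them quantile normalization (0.65, adjusted p = 0.122) and the authors' deposited values. Itgb4, the integrin of hemidesmosomes, was higher (1.99 ± 0.24, adjusted p = 0.000181), and Col17a1, its transmembrane collagen partner there, was lower (-1.41 ± 0.51, adjusted p = 0.0387), with overlapping groups and a call that 11 of 28 alternatives lost. Lgr5, a receptor of stem and progenitor cells of several epithelia, was well above background on all normal arrays and on no tumor array, at least 44.3-fold lower. Of 13 genes of the basal keratin and p63 list, 3 were higher and 3 lower, and the median was 0.01.

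Of 15 myoepithelial contractile genes, 9 were lower and 2 higher, with a median of -1.42. Myh11, smooth muscle myosin heavy chain, was at 1.88, 2.65 and 3.07 on the normal arrays and -4.81, -4.63 and -4.12 on the tumor arrays. Cnn1, calponin, was at 4.45, 4.33 and 5.02 on the normal arrays and -0.78, -0.39 and -1.48 on the tumor arrays. Neither gene's groups came near each other, and the differences were -7.05 ± 0.46 (133-fold lower, adjusted p = 7.58e-06) and -5.48 ± 0.29 (44.6-fold lower, adjusted p = 2.02e-06). Mylk, the kinase that activates smooth muscle myosin, and Myl9, its light chain substrate, differed by -4.13 ± 0.37 and -4.03 ± 0.48. Oxtr, the oxytocin receptor through which these cells expel milk, was above background on normal arrays only and was at least 19.2-fold lower. Smtn (1.30 ± 0.23) and Actn1 (0.72 ± 0.25), which encode actin-binding proteins, were the 2 higher members. The probes of Acta2, smooth muscle actin, disagreed in size: 3 of 4 were lower and the brightest over all arrays was flat. The flat probe was at 4.32, 4.32 and 4.29 on the normal arrays and 4.02, 4.55 and 4.24 on the tumor arrays, whereas a probe to the same transcript was at 6.51, 6.43 and 6.28 on the normal arrays and at -0.00, -1.19 and -0.03 on the tumor arrays, a difference of -6.81; the other 2 probes differed by -8.39 and -1.65. That flat probe was called lower in the quantile-normalized values (-0.59, adjusted p = 0.0102) and in the authors' deposited values (-0.55, adjusted p = 0.0139). The mean over its probes was lower (-4.22, adjusted p = 4.93e-06), and taking probe means throughout gave 12 lower contractile genes and a median of -2.23. The contractile genes of this list are shared with vascular smooth muscle and pericytes, whose markers were lower as well (below), and which cells account for them cannot be told apart in bulk RNA, nor can fewer cells of a type be told from less RNA per cell.

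Genes of the hormone-sensing luminal cell were lower in tumor organoids. Of 10 tested, 6 were lower and only Ly6a, which encodes Sca-1, was higher (2.61 ± 0.55, adjusted p = 0.00294); the median was -2.21. Tbx3, a T-box factor of mammary development, was at 2.09, 1.83 and 0.92 on the normal arrays and -2.79, -3.50 and -3.04 on the tumor arrays, a 26.5-fold difference (-4.73 ± 0.40, adjusted p = 2.94e-05). Foxa1, the factor that opens chromatin for the estrogen receptor, was at -0.64, -0.42 and -1.17 on the normal arrays and -3.59, -4.32 and -4.38 on the tumor arrays (-3.35 ± 0.75, adjusted p = 0.00402). Normal mouse D was the lowest of its group for both, still well above the tumor arrays. Esr1, the estrogen receptor itself, differed by -1.70 ± 0.32 (adjusted p = 0.00157), and Prlr, the prolactin receptor, by -2.71 ± 0.47 (adjusted p = 0.00108). The steroid receptor targets Greb1 (at least 7.53-fold lower) and Pgr, the progesterone receptor (at least 2.52-fold lower), were not well above background on any tumor array. Normexp, which lifts dim signals, left 2 of these genes lower. Without a call it took Foxa1 to -1.02, Esr1 to -0.11 and Greb1 to -0.22 and turned Pgr to 0.77. Areg, the estrogen-induced ERBB ligand, was at 2.65, 1.5 and 0.35 on the normal arrays and 0.49, 1.04 and 0.27 on the tumor arrays and was not called, its groups overlapping.

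Markers of stroma and vessels were lower in tumor organoids, and this has to be read beside each of the groups that follow. Of 14 fibroblast and pericyte markers, 13 were lower and none higher, with a median of -2.95; list medians were -0.21 to 1.8 on the normal arrays and -2.24 to -2.14 on the tumor arrays. Col3a1, a fibrillar collagen of fibroblasts, was at 1.04, 1.33 and 4.14 on the normal arrays and -2.48, -2.96 and -3.54 on the tumor arrays (-5.16 ± 0.72, adjusted p = 0.000379). Normal mouse D had the highest list median, and in Lum, a small proteoglycan, it stood above the other normal mice, at -0.47, -1.31 and 3.29 on the normal arrays and -2.50, -2.92 and -4.38 on the tumor arrays. Rgs5, a pericyte regulator of G protein signals, was above background on normal arrays only (at least 28.3-fold lower). Of 13 endothelial markers, 11 were lower and none higher (median -3.44): Cldn5, the claudin of vessel walls, was at 2.12, 1.36 and 2.31 on the normal arrays and -3.59, -4.67 and -3.50 on the tumor arrays (-5.85 ± 0.50, adjusted p = 3.09e-05), and Cdh5, vascular cadherin, and Robo4, a vessel guidance receptor, differed by -5.10 ± 0.62 and -3.87 ± 0.26. Tie1, an endothelial receptor kinase, was not well above background on any tumor array (at least 16.3-fold lower; -1.12 without a call under normexp). Cdh5 was well above background on 2 of the 3 tumor arrays. Of 5 adipocyte markers tested, 2 were lower (median -1.98), Fabp4 (-4.70 ± 0.46, adjusted p = 5.55e-05) and Plin1 (-3.07 ± 1.15, adjusted p = 0.0436); Plin1 was at -4.84, -2.73 and 0.42 on the normal arrays and -5.55, -4.88 and -5.95 on the tumor arrays, so that its difference rested on normal mouse D, and its call was lost under 16 of 27 alternatives, that without mouse D among them.

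Leukocyte markers did not follow one direction. Ptprc, the pan-leukocyte antigen CD45, was at -4.36, -7.80 and -4.13 on the normal arrays and -7.0, -6.95 and -7.43 on the tumor arrays, so that normal mouse B lay below the tumor arrays and the gene was not called. Lyz2, lysozyme of macrophages, was lower (-2.37 ± 0.82, adjusted p = 0.032), with overlapping groups and a call that 8 of 28 alternatives lost. Cd68, a lysosomal protein used as a macrophage marker, was at -2.66, -3.21 and -1.76 on the normal arrays and 1.27, 2.05 and 1.52 on the tumor arrays, higher on every tumor array (4.16 ± 0.43, adjusted p = 7.91e-05), while Csf1r, Adgre1 and Tyrobp, which mark the same cells, were not called. Of the 12 leukocyte markers tested, 1 was higher and 1 lower, and the median was -0.15. These counts were unstable: under normexp 7 rose and 1 fell (median 1.26), and without normal mouse B 5 were lower and 1 higher.

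Interstitial matrix genes were mostly lower. Of 22, 11 were lower and 6 higher, with a median of -0.93. Col14a1, a collagen on fibril surfaces, was at 1.25, 1.57 and 1.41 on the normal arrays and -7.66, -7.27 and -7.50 on the tumor arrays, not well above background on any tumor array and at least 101-fold lower, and Fbn1, fibrillin of elastic microfibrils, differed by -5.26 ± 0.41. The collagen VI chains Col6a1, Col6a2 and Col6a3 were lower by -3.79, -2.83 and -3.04. Among the higher members were matricellular genes: Ccn1 (2.50 ± 0.35) and Ccn2 (1.49 ± 0.35), known targets of YAP, and Tnc, tenascin C (1.88 ± 0.34, adjusted p = 0.00131). Of 13 genes used to score epithelial-mesenchymal transition, 7 were lower and 1 higher (median -1.53), against 4 lower and 3 higher under normexp (median -0.34) and 3 lower and 1 higher among the 9 above background on all 6 arrays (median -0.22), the higher being Snai1 (1.26 ± 0.37, adjusted p = 0.0149), a repressor of E-cadherin. Zeb1 was at -1.86, -1.57 and -0.64 on the normal arrays and -5.75, -5.31 and -5.09 on the tumor arrays (-4.03 ± 0.42, adjusted p = 8.36e-05), and Vim, vimentin, at 5.70, 5.07 and 5.14 on the normal arrays and 3.46, 4.41 and 1.93 on the tumor arrays (-2.04 ± 0.55, adjusted p = 0.0101); both are also expressed by fibroblasts, and Zeb1 kept its sign but not its call under normexp (-0.9, adjusted p = 0.112). In the Notch pathway 6 of 16 genes were lower and none higher (median 0.01), among them Mfng (-4.08 ± 0.41), Heyl (-3.84 ± 0.42), Hey2 (-3.54 ± 0.37) and Dll4 (-2.84 ± 0.30), whereas Notch1 (0.29 ± 0.31), Notch2 (-0.09 ± 0.16) and Hes1 (0.44 ± 0.23) were not called. Dll4, Hey2 and Notch4 (-1.92 ± 0.35) are genes of arterial endothelium. Under normexp Mfng (-0.53), Heyl (-0.59) and Dll4 (-0.78) lost their calls. Vim lost its call with slide as a fixed block (-1.33, adjusted p = 0.273). Fbn1, Zeb1, Mfng and Heyl were well above background on only 1 of the 3 tumor arrays, so the sizes of their differences depend on dim signals, and Fbn1 was at -1.52 under normexp. The part of stromal and endothelial cells in these values was not tested. Of 17 Hox genes, 7 were lower and 1 higher (median -1.52), but most were dim, and under normexp the median turned to 0.71 with 7 higher and none lower, so that no direction is given for them.

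**Figure D2:**
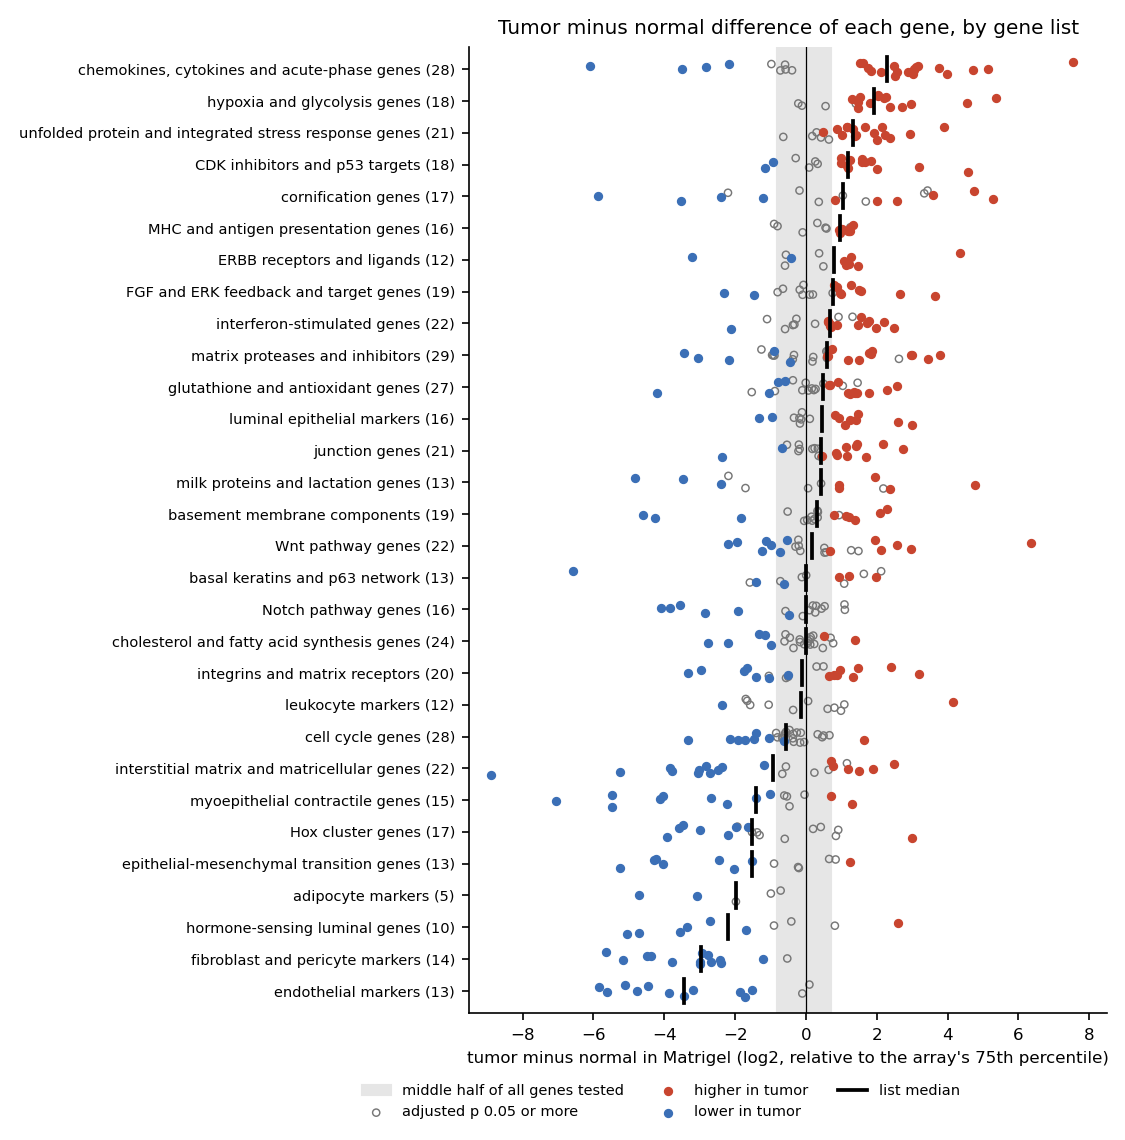
Tumor minus normal difference in Matrigel (horizontal axis, log2) of every tested gene of 30 gene lists, with the number of genes in brackets; red points are genes called higher, blue points called lower, open points not called, the black bar is the list median and the grey band spans the quartiles of all 18274 genes. Genes above background in only 1 group stand at their fitted difference. The list medians run from -3.44 (endothelial markers) to 2.30 (chemokines, cytokines and acute-phase genes).

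The largest rises included genes best known from other epithelia. Among genes well above background on all 6 arrays with groups that did not overlap, Msln, mesothelin, a surface protein of mesothelium and several carcinomas, rose most. It was at -5.04, -5.30 and -5.15 on the normal arrays and 1.16, 1.47 and 2.45 on the tumor arrays, a 116-fold difference (6.86 ± 0.64, adjusted p = 4.69e-05). Tesc (6.0 ± 0.74), a calcium-binding regulator of proton exchange, and Plekhs1 (5.80 ± 0.63) came next. Sftpd, the lung surfactant collectin, was at -4.73, -4.79 and -5.05 on the normal arrays and 0.99, 1.43 and -0.66 on the tumor arrays (5.45 ± 0.53, adjusted p = 5.52e-05). Further rises were Bst1 (5.37 ± 0.90), an ectoenzyme that makes cyclic ADP-ribose, Klk7 (5.27 ± 1.46), the kallikrein that sheds skin cells, Pglyrp1 (5.20 ± 0.59), which binds bacterial peptidoglycan, and Cst6 (4.73 ± 1.04), a cysteine protease inhibitor of skin. Klk7 was uneven among tumors, at -5.05, -2.85 and -4.66 on the normal arrays and -0.42, -0.34 and 4.02 on the tumor arrays, and lost its call with slide as a fixed block (6.02, adjusted p = 0.0851). Above background on tumor arrays alone were Degs2, a ceramide hydroxylase of epithelia (at least 150-fold higher), S100a9, a calprotectin subunit (at least 99.2-fold), Lce1d, a late cornified envelope gene (at least 59.3-fold, though its call was lost without tumor mouse C, without normal mouse B and with slide as a fixed block), Ankk1 (at least 33.9-fold), the acute-phase protein Orm1 (at least 30.4-fold) and Wnt7a (at least 28.1-fold). S100a9 was highest in tumor mouse C, at -6.19, -6.56 and -8.39 on the normal arrays and -0.60, -1.56 and 3.67 on the tumor arrays.

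The largest falls were led by Dmbt1, a mucosal scavenger receptor that binds bacteria, at 3.23, 3.72 and 2.15 on the normal arrays and -4.74, -4.48 and -4.48 on the tumor arrays (194-fold, -7.60 ± 0.57, adjusted p = 1.5e-05). Ptn, pleiotrophin, a heparin-binding growth factor, differed by -7.0 ± 0.73, Tspan8, a tetraspanin of epithelia, by -6.20 ± 0.77, and Mest, an imprinted gene, by -5.71 ± 0.34. Icam2 (-5.57 ± 0.49) and Cd93 (-5.01 ± 0.60) are endothelial surface proteins, and Ccl8 (-4.89 ± 0.81) is a chemokine of stromal cells and macrophages. Pgm5, a relative of phosphoglucomutase found at adherens junctions of muscle, fell by -5.09 ± 0.30 on its brighter probe and by -0.36 without a call on a dim one. Frem2, a basement membrane protein (at least 42-fold lower), Ctnnd2, a neural catenin (at least 28.2-fold), and the G protein-coupled receptor Gpr83 (at least 27-fold) were above background on normal arrays alone.

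Hypoxia and glycolysis genes rose together. The transcription factor HIF binds a short core sequence and turns on glucose uptake, glycolysis and angiogenic signals when oxygen is short. Of 18 genes of the list, 14 were higher and none lower, with a median of 1.92. Adm, adrenomedullin, a vasodilator peptide, was at -0.09, -2.36 and -2.75 on the normal arrays and 3.16, 4.16 and 3.59 on the tumor arrays (5.37 ± 0.67, adjusted p = 0.000204). Ero1a, the oxidase that forms disulfide bonds in the endoplasmic reticulum, was at 1.76, 0.59 and 0.11 on the normal arrays and 5.50, 5.83 and 4.75 on the tumor arrays (4.54 ± 0.44, adjusted p = 5.52e-05). In both, normal mouse A was the highest of its group and mouse D the lowest, and every tumor array lay above all of them. Ndrg1 (2.98 ± 0.54), Ankrd37 (2.72 ± 0.59), the glucose transporter Slc2a1 (2.26 ± 0.43), hexokinase Hk2 (2.04 ± 0.36), the growth factor Vegfa (2.37 ± 0.43) and the HIF hydroxylase Egln3 (2.20 ± 0.48) rose likewise. Ldha (0.55 ± 0.28), Pdk1 (-0.11 ± 0.37), Bnip3 (1.41 ± 0.58) and Kdm3a (-0.22 ± 0.14) were not called. With single arrays left out, 14 to 16 genes of the list were called higher.

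To show what the promoters of this group hold, windows from 250 bases before to 50 bases after each RefSeq transcript start (GRCm38.p6) were searched on both strands for ACGTG, one form of the HIF core. A match was found for 11 of the 17 members with a promoter entry (64.7%) and for 21.8% of 27025 genes. The stretches around a match of Slc2a1 and Hk2 follow, with the match in capitals (CACGT is ACGTG on the other strand).
Slc2a1: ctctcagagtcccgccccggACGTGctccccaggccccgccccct
Hk2: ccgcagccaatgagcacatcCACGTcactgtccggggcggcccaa
The Slc2a1 stretch is chr4:119108689-119108733 on the plus strand, with the match starting at -36 from the transcript start, and the Hk2 stretch is chr6:82774482-82774526 on the minus strand, with the match starting at -52. Ankrd37, Ero1a, Vegfa and Egln3, which were higher, matched too, as did Ldha and Bnip3, which were not called. The higher genes Adm and Ndrg1 are not among the members with a match. A match describes the letters of the window and does not show that the factor bound there. The members were listed for their link to hypoxia and glycolysis, so their share of matches does not bear on the difference between tumor and normal organoids.

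Genes of the unfolded protein and integrated stress responses also rose, and for several of them the tissue difference was larger in Matrigel than in collagen I. In this response, stalled translation raises the transcription factor ATF4, which with C/EBP and ATF partners turns on amino acid supply genes and, when stress lasts, Ddit3 (CHOP) and Trib3. Of 21 genes, 16 were higher and none lower, with a median of 1.33; in quantile-normalized values 12 were higher and 1 lower. Ddit3 was at -1.07, -0.97 and -0.68 on the normal arrays and 2.46, 3.61 and 2.88 on the tumor arrays (14.8-fold, 3.89 ± 0.26, adjusted p = 8.15e-06). Trib3, a pseudokinase that damps this response, was at 3.13, 3.09 and 3.21 on the normal arrays and 5.43, 5.20 and 5.90 on the tumor arrays (2.37 ± 0.19, adjusted p = 1.94e-05). Chac1, which degrades glutathione, was at 0.13, 0.67 and 0.79 on the normal arrays and 2.65, 2.20 and 3.46 on the tumor arrays (2.24 ± 0.32, adjusted p = 0.000378). All tumor arrays lay above all normal arrays for these 3 genes, and tumor mouse B had the highest Ddit3 but the lowest Trib3 and Chac1. Atf4 itself (1.33 ± 0.19), Asns, asparagine synthetase (1.93 ± 0.21), Phgdh, which starts serine synthesis (2.01 ± 0.24), and Sesn2 (1.67 ± 0.18) rose as well, as did Xbp1 (1.42 ± 0.24) of the unfolded protein branch. The chaperones Hspa5 (0.42 ± 0.19) and Hsp90b1 (-0.64 ± 0.28) were not called. Ddit4, an inhibitor of mTORC1 that hypoxia also induces, was at 7.06, 4.59 and 5.02 on the normal arrays and 8.25, 8.75 and 8.48 on the tumor arrays, with normal mouse A between the other normal mice and the tumors.

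The composite C/EBP-ATF element TGATGCAA, to which ATF4 and its partners bind, was searched on both strands in the same promoter windows. It was found for 5 of 20 members with a promoter entry (25%), Atf3, Chac1, Herpud1, Slc7a11 and Vldlr, against 1.03% of all 27025 genes. It was not in the windows of Ddit3 or Trib3. These members were listed for their link to the stress responses, so this share does not bear on the tissue difference either. The stretches of Atf3, Chac1 and Herpud1, which were higher in tumor organoids, follow, with the element in capitals (TTGCATCA is the element on the other strand).
Atf3: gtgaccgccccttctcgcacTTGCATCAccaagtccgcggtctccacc
Chac1: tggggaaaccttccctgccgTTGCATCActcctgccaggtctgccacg
Herpud1: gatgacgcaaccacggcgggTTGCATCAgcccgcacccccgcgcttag
Atf3 (2.15 ± 0.34, adjusted p = 0.000637) is shown from chr1:191183416-191183463 on the minus strand, Chac1 from chr2:119351029-119351076 on the plus strand, and Herpud1 (1.02 ± 0.20, adjusted p = 0.00192), a component of the machinery that clears misfolded proteins, from chr8:94386297-94386344 on the plus strand. The elements start at -110, -193 and -112 from the transcript start. Vldlr (0.18 ± 0.21) and Slc7a11 (0.65 ± 0.75) hold the element too and were not called.

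The same tissues were also compared in collagen I, on separate arrays but largely from the same mice, and the difference between both tissue differences was tested for every gene. It passed for 481 of 18274 genes (2.63%), with the tumor minus normal value higher in Matrigel for 236 and lower for 245, and 465 of them were also called in Matrigel. In collagen I alone 1579 genes (8.64%) were called between the tissues. The tumor arrays in Matrigel were also dimmer than those in collagen I. Their mean 75th percentile was 463 signal units against 737, and 57.4% of spots were well above background against 65%. Spike-in probes stood 2.51 log2 units above the percentile against 0.73. The part of this gap in the difference between the gels was not tested. Of the 4700 genes higher in tumor organoids in Matrigel, 4207 had the same sign in collagen I, and of the 4735 lower genes 4184 did. The share of all genes with the same sign was not counted, and the mice were largely the same, so these counts have no baseline. In collagen I the stress response list had a median of 0.10. Ddit3 differed by 0.84 ± 0.26 there, Trib3 by -0.26 ± 0.19, Chac1 by -0.18 ± 0.32 and Atf4 by 0.10 ± 0.19. The difference between the gels was 3.05 ± 0.37 for Ddit3 (adjusted p = 0.00886), 2.62 ± 0.27 for Trib3 (adjusted p = 0.00506) and 2.42 ± 0.45 for Chac1 (adjusted p = 0.0326), and it was called for 7 of the 21 genes in this fit without a mouse term, the others being Asns, Atf4, Atf5 and Slc7a5. Idi1, an enzyme of isoprenoid synthesis, went the other way: it was at 3.59, 3.59 and 3.77 on the normal arrays and 0.72, 1.29 and 0.67 on the tumor arrays in Matrigel (-2.76 ± 0.23, adjusted p = 2.33e-05) and differed by -0.10 ± 0.23 in collagen I (difference -2.66 ± 0.32, adjusted p = 0.00816). The fit treated the gels as independent, although 5 mice gave organoids to both. Restricted to those 5 mice, with the mouse as a fixed block, no gene passed (0 of 18274, with 3787 at an unadjusted p under 0.05, limma), while the mouse as a random block gave 1712. Within mice the differences were of like size: 4.51 for Csf3 (adjusted p = 0.0824), 3.16 for Ddit3, 2.72 for Trib3 (both adjusted p = 0.105), 2.63 for Chac1 (adjusted p = 0.131) and -2.5 for Idi1 (adjusted p = 0.115). The count of 481 also ranged from 10 with normexp to 3146 with array quality weights and 11719 with spike-in scaling, and single arrays left out moved it between 12 (without normal collagen mouse B) and 2081 (without normal Matrigel mouse A). Apart from the fixed mouse block, Ddit3, Trib3 and Csf3 passed under all 27 other alternatives counted, while Chac1 failed under 12 of 28. Spike-in scaling without re-centring is not counted there.

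**Figure D3:**
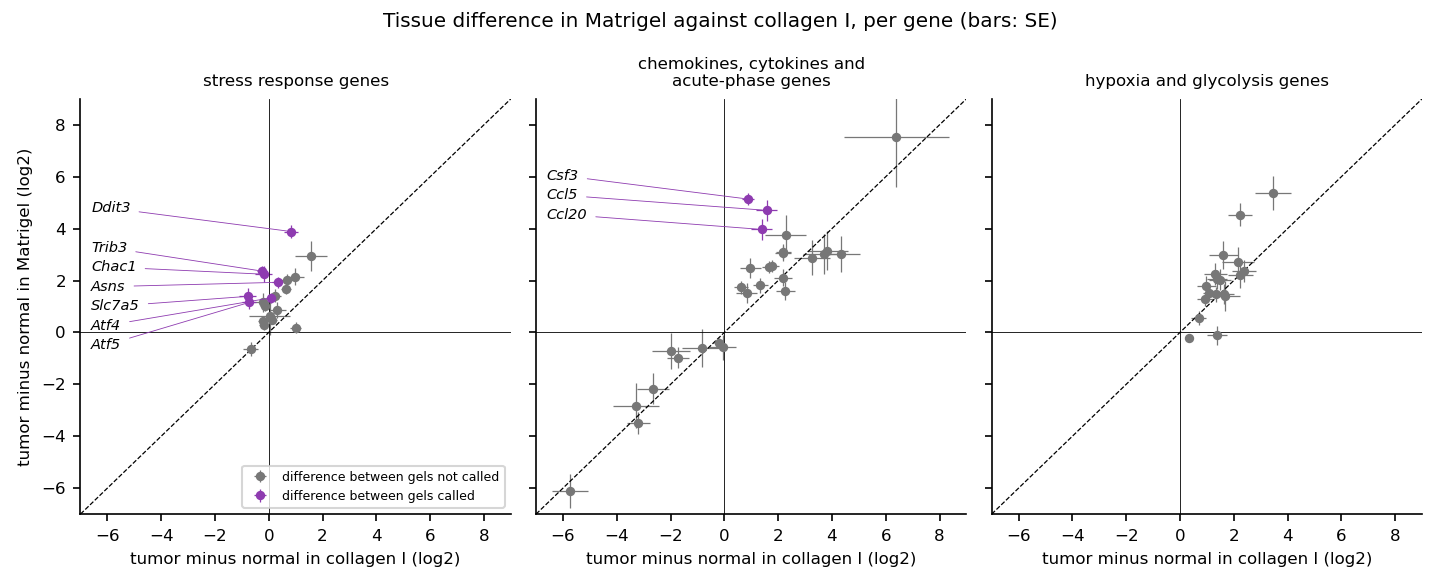
Tumor minus normal difference in Matrigel (vertical axis, log2) against that in collagen I (horizontal axis, log2) for the genes of 3 lists; each point is a gene, bars are standard errors, the dashed line marks equal differences, and purple named genes passed the test of the difference between the gels in the fit without a mouse term. Ddit3 lies at 3.89 in Matrigel and 0.84 in collagen I and Csf3 at 5.14 and 0.87, while no hypoxia gene passed that test.

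Chemokines, cytokines and acute-phase genes had the highest median of the 30 lists in this fit, though hypoxia genes led without normal mouse A (2.34 against 2.18) and with slide as a fixed block (2.68 against 2.4). Of 28 genes, 19 were higher and 4 lower. The list median was 2.30, or 2.08 when genes above background in 1 group alone are put at their bound. Csf3, the growth factor of neutrophils (G-CSF), was at -3.11, -3.31 and -2.73 on the normal arrays and 2.20, 2.15 and 1.92 on the tumor arrays (35.3-fold, 5.14 ± 0.23, adjusted p = 1.01e-06). Ccl5, a chemokine for T cells and monocytes, was at -1.09, -2.04 and -2.33 on the normal arrays and 3.04, 3.58 and 2.05 on the tumor arrays (4.71 ± 0.40, adjusted p = 3.14e-05). All tumor values lay above all normal values in both genes, and both differed less in collagen I, by 0.87 ± 0.23 (difference between gels 4.27 ± 0.33, adjusted p = 0.000677) and 1.57 ± 0.40 (3.14 ± 0.57, adjusted p = 0.0317; 0.127 within mice). The neutrophil chemokines Cxcl1 (2.49 ± 0.38) and Cxcl5 (3.11 ± 0.28) and Ccl20 (3.97 ± 0.40) rose, as did Cxcl2 and Il1b, which were not well above background on any normal array (at least 5.24-fold and 4.12-fold). Tnf (2.11 ± 0.33) and the interleukin-1 antagonist Il1rn (3.05 ± 0.29) were higher too. Among secreted defense proteins, complement C3 was at 3.75, 3.17 and 3.29 on the normal arrays and 5.92, 6.11 and 5.74 on the tumor arrays (2.52 ± 0.23, adjusted p = 4.64e-05), and serum amyloid Saa1 (3.15 ± 0.76), Saa2 (3.01 ± 0.77) and Saa3 (2.88 ± 0.67), lipocalin Lcn2 (1.74 ± 0.26) and haptoglobin Hp (1.52 ± 0.39) were higher; Saa1 and Saa2 are near-identical copies, so their probes may read each other. The 4 lower members were Cxcl12 (-3.49 ± 0.42), Cxcl14 (-2.17 ± 0.60), Il33 (-2.82 ± 0.86) and Cxcl15 (at least 16.8-fold); Cxcl12 and Il33 are typical of stromal and endothelial cells, whose markers were lower. Il6 (-0.72 ± 0.70) and Ccl2 (-0.57 ± 0.48) were not called. Over the same arrays the leukocyte list had medians of -5.06 to -2.86 on the normal arrays and -3.76 to -3.23 on the tumor arrays, with Ptprc between -7.43 and -6.95 on the latter; the part of immune cells in the chemokine values was not tested.

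Interferon-stimulated and antigen presentation genes were more often called higher than lower, with counts that depended on the scaling. The shares called higher were 59.1% and 56.2%, against 25.7% of all genes. Of 22 interferon-stimulated genes, 13 were higher and 1, Ifit2 (-2.13 ± 0.35, adjusted p = 0.000849), lower, with a median of 0.69; normexp took Ifit2 to -0.21 without a call. Irf7, which amplifies the interferon response, was at 1.54, 0.72 and -0.04 on the normal arrays and 3.22, 2.93 and 3.49 on the tumor arrays (2.48 ± 0.43, adjusted p = 0.00116), and Bst2, tetherin, at 4.15, 3.52 and 3.05 on the normal arrays and 5.56, 5.82 and 5.97 on the tumor arrays (2.21 ± 0.34, adjusted p = 0.000601). Normal mouse D was lowest and tumor values did not overlap with the normal ones in either gene. Isg15 (1.74 ± 0.53), Usp18 (1.97 ± 0.54) and Ifi35 (1.78 ± 0.28) followed, while Ifit1 (-0.33 ± 0.67), Mx1 (-1.10 ± 0.61) and Cxcl10 (0.26 ± 0.48) were not called. Quantile normalization left 6 of them higher and the authors' values 5, and leaving out single arrays left 5 to 13. Of 16 antigen presentation genes, 9 were higher and none lower (median 0.97): B2m, the light chain of class I molecules, was at 4.79, 4.05 and 4.18 on the normal arrays and 5.96, 5.69 and 4.95 on the tumor arrays (1.20 ± 0.29, adjusted p = 0.00625), H2-D1 at 7.02, 6.0 and 5.57 on the normal arrays and 7.43, 7.67 and 7.51 on the tumor arrays, and Psmb8 of the immunoproteasome differed by 1.23 ± 0.37, with overlapping groups. Only 1 of the 16 stayed called with quantile normalization and 2 in the authors' values, and the class I genes are near-identical copies whose probes cannot be assigned with certainty. Class II genes, which antigen-presenting cells use, were not called: Cd74 differed by -0.90 ± 0.61 and H2-Aa by -0.80 ± 0.68.

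The interferon-stimulated response element GAAANNGAA, bound by IRF and STAT factors, was found on either strand in the windows of 13 of 19 members with a promoter entry (68.4%) and of 9.76% of 27025 genes. It is shown for Bst2 and Stat2, both higher in tumor organoids.
Bst2: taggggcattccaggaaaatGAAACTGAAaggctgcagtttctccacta
Stat2: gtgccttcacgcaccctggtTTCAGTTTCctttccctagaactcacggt
Bst2 is shown from chr8:71537568-71537616 on the minus strand and Stat2 (0.87 ± 0.28, adjusted p = 0.0236) from chr10:128270257-128270305 on the plus strand, where the element is written on the other strand. The matches start at -124 and -221 from the transcript start. Isg15 holds the element too, as do Ifit1 and Cxcl10, which were not called. The higher genes Irf7, Usp18 and Ifi35 are not among the members with a match. As the members were listed as interferon-stimulated, their share of matches does not bear on the tissue difference.

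Of 28 cell cycle genes, 8 were lower, near the 25.9% of all genes, 1 was higher and 19 were not called (median -0.58). Mki67, the antigen Ki-67 of cycling cells, was at 4.17, 4.12 and 3.68 on the normal arrays and 2.01, 2.08 and 2.15 on the tumor arrays (-1.91 ± 0.40, adjusted p = 0.00305). Bub1 of the spindle checkpoint (-2.13 ± 0.40), Top2a (-1.46 ± 0.38) and Ccna2 (-1.42 ± 0.38) were lower as well. Ccne2, cyclin E2, was above background on normal arrays only (at least 5.16-fold lower), and normexp put it at 0.30 without a call. Ccnd1, cyclin D1, was the higher member, at 3.35, 3.16 and 2.36 on the normal arrays and 4.69, 4.82 and 4.29 on the tumor arrays (1.65 ± 0.31, adjusted p = 0.00173). Of 18 cyclin-dependent kinase inhibitors and p53 targets, 12 were higher and 2 lower, with a median of 1.18. Cdkn1a, p21, was at 0.39, -0.23 and -0.64 on the normal arrays and 2.66, 3.58 and 2.82 on the tumor arrays (9.08-fold, 3.18 ± 0.31, adjusted p = 5.52e-05). Cdkn2a, which encodes p16 and p19ARF, was at -6.22, -7.10 and -7.66 on the normal arrays and -2.26, -0.54 and -4.44 on the tumor arrays; it was not well above background on any normal array and at least 13.1-fold higher, with tumor mouse B highest. Cdkn2b, p15 (2.00 ± 0.43), and the death gene Bbc3, PUMA (1.85 ± 0.20), rose too, while Mdm2 (0.09 ± 0.17) and Ccng1 (-0.29 ± 0.23), direct p53 targets, were not called, and Trp53inp1 was lower (-1.16 ± 0.20, adjusted p = 0.00122).

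**Figure D4:**
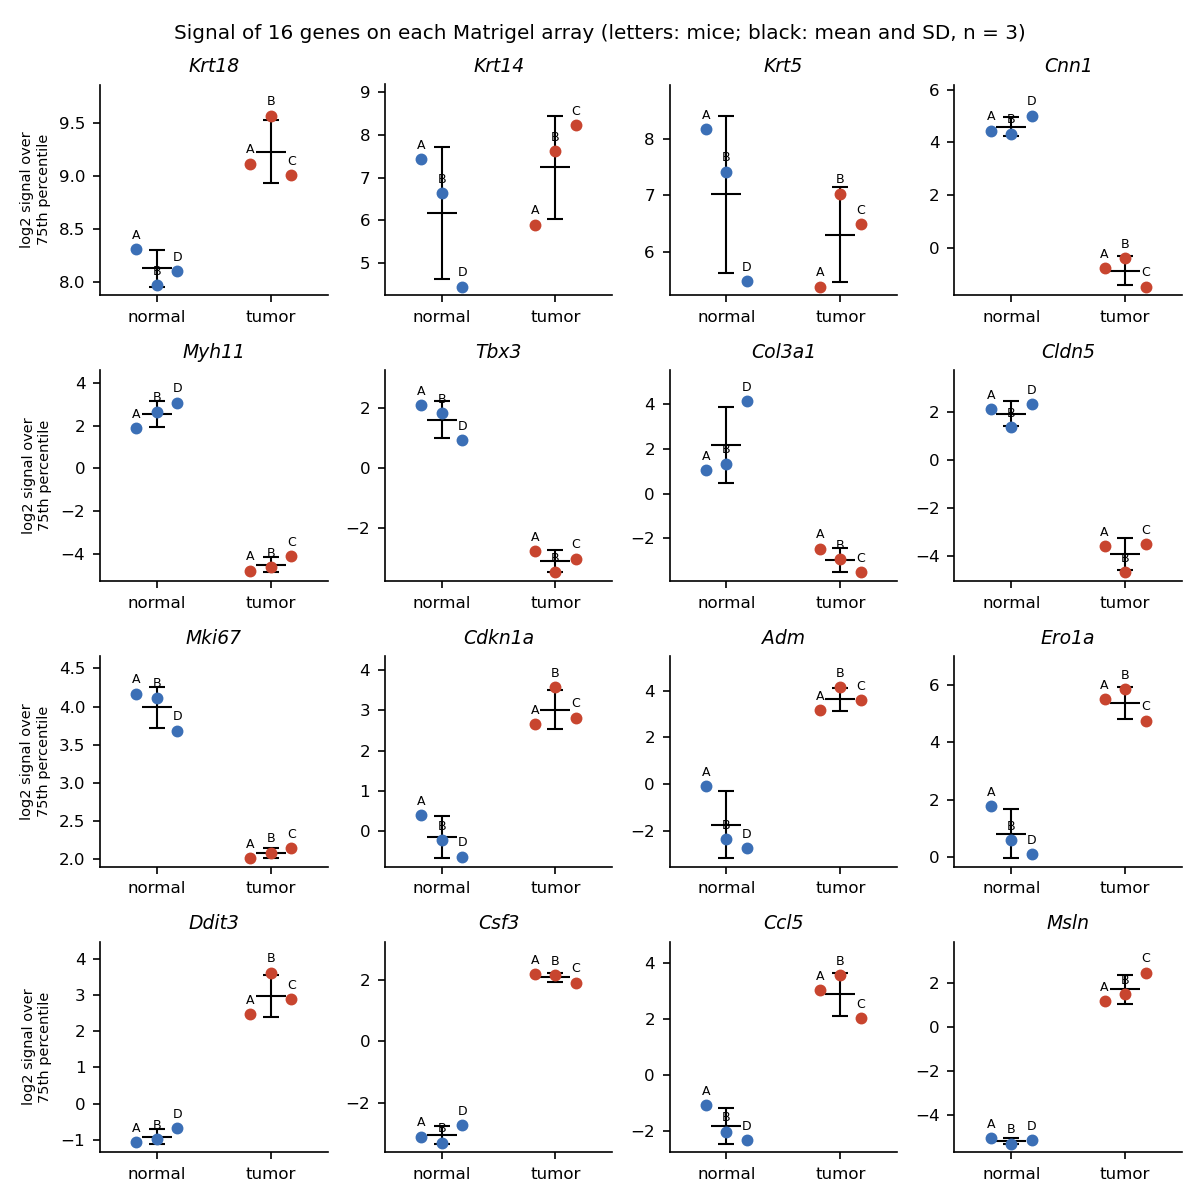
Log2 signal over the array's 75th percentile (vertical axes, a separate range per panel) of 16 genes on each Matrigel array; points are arrays, letters name the mouse, and the black bars are the mean and SD of 3 arrays. Krt14 and Krt5 overlap between the tissues, and in the other 14 panels every tumor array lies on the same side of every normal array, as for 57.6% of all genes tested.

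Growth factor pathways downstream of middle T and FGF2 were mixed. Of 12 ERBB receptors and ligands, 6 were higher and 2 lower (median 0.79). Hbegf, a membrane-bound ligand of EGFR, was at -1.57, -1.81 and -1.66 on the normal arrays and 2.61, 2.62 and 2.77 on the tumor arrays (20.3-fold, 4.35 ± 0.41, adjusted p = 4.69e-05), and its difference was 1.79 ± 0.41 in collagen I. Erbb2, the HER2 receptor, was at 1.58, 1.41 and 1.14 on the normal arrays and 2.31, 2.70 and 2.48 on the tumor arrays (1.12 ± 0.17, adjusted p = 0.000469). Btc, another EGFR ligand, was not well above background on any tumor array (at least 5.22-fold lower) and turned to 0.41 without a call under normexp. Nrg1 differed by 1.48 ± 0.33 on its brightest probe, but its other probes ranged from -2.0 to 1.63, and their mean gave 0.05, so it has no single direction. Among 19 FGF and ERK genes, 9 were higher and 2 lower (median 0.75). Fosl1, the AP-1 factor FRA1 and an ERK target, was at -3.0, -3.62 and -3.69 on the normal arrays and -0.16, 0.57 and 0.19 on the tumor arrays (3.64 ± 0.51, adjusted p = 0.000369), and the early response genes Ier3 (2.65 ± 0.41), Fos (1.56 ± 0.34) and Etv4 (1.49 ± 0.31) rose. The feedback inhibitors Dusp6 (0.79 ± 0.30) and Spry2 (0.86 ± 0.19) were higher, Spred1 lower (-1.46 ± 0.22, adjusted p = 0.000481) and Spry1 (0.20 ± 0.25) and Etv5 (-0.10 ± 0.39) not called. Fgfr2, a receptor that epithelium needs for branching, was at -0.30, -0.35 and -1.04 on the normal arrays and -2.75, -3.22 and -2.64 on the tumor arrays, lower on all tumor arrays (-2.31 ± 0.26, adjusted p = 0.000134). Of 22 Wnt genes, 6 were higher and 7 lower (median 0.18): Wnt7a and Wnt7b (2.97 ± 0.30, adjusted p = 7.04e-05) were the ligands that rose, together with the factor Lef1 (2.12 ± 0.43). The Dickkopf family member Dkk3 (-2.20 ± 0.28) and the secreted antagonist Sfrp2 (-1.94 ± 0.28) were lower. Another secreted antagonist, Notum, named 5730593N15Rik on the array, was higher at a dim signal (2.56 ± 0.49, adjusted p = 0.00186).

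Junction genes were more often higher than lower (47.6% called higher, against 25.7% of all genes). Of 21, 10 were higher and 2 lower (median 0.44): the connexin Gjb2 (2.17 ± 0.43) and the claudin Cldn1 (1.69 ± 0.28) rose, while Cldn8 was lower (-2.38 ± 0.41, adjusted p = 0.00104) and the adherens junction genes Ctnnb1 (0.36 ± 0.18) and Cdh3 (0.18 ± 0.29) were not called. Quantile normalization left 5 of them higher. Of 19 basement membrane genes, 6 were higher and 3 lower (median 0.33). The laminin chains went apart: Lamb3, of the laminin of hemidesmosomes, was at 3.54, 2.69 and 2.21 on the normal arrays and 4.79, 5.20 and 4.71 on the tumor arrays (2.09 ± 0.36, adjusted p = 0.00103), whereas Lama1, a chain of the laminin that abounds in Matrigel itself, was at -0.70, -0.65 and -0.74 on the normal arrays and -4.74, -5.87 and -4.27 on the tumor arrays (-4.26 ± 0.46, adjusted p = 9.46e-05). Col18a1, the source of endostatin, was higher (2.30 ± 0.28, adjusted p = 0.000181) and the linker Nid2 lower (-4.60 ± 0.65, adjusted p = 0.000383). Lama1 and Nid2 were each well above background on 2 of the 3 tumor arrays, and normexp shrank them to -1.25 and -1.41. Lamc1 (0.18 ± 0.19) and Col4a1 (-0.52 ± 0.46) were not called. Of 20 integrins and matrix receptors, 8 were higher and 7 lower (median -0.10). Itga3, the laminin-binding partner of integrin beta 1, was at 0.64, 0.50 and 0.27 on the normal arrays and 3.54, 4.11 and 3.34 on the tumor arrays (3.19 ± 0.29, adjusted p = 3.97e-05), and syndecan Sdc1 differed by 2.40 ± 0.44. The collagen receptor Ddr2 (-3.34 ± 0.64), a receptor of mesenchymal cells, was lower and Ddr1 (0.96 ± 0.19), its epithelial relative, higher; Ddr2 was well above background on 2 of the 3 tumor arrays and lost its call under normexp (-0.54). Itgb1 itself was not called (-0.50 ± 0.26).

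Of 29 matrix proteases and inhibitors, 12 were higher and 5 lower (median 0.59), with 6 each in quantile-normalized values. The stromelysins Mmp10 (2.96 ± 0.67) and Mmp3 (1.79 ± 0.68), matrilysin Mmp7 (3.44 ± 0.79) and collagenase Mmp13 (2.98 ± 0.70) were higher, Mmp3 with overlapping groups. Mmp7 stood out in tumor mouse C, at -6.72, -5.68 and -7.18 on the normal arrays and -4.15, -4.27 and -0.84 on the tumor arrays, and was well above background on 1 of the 3 normal arrays. Mmp2 (-2.17 ± 0.62) and the collagen-degrading cathepsin Ctsk (-3.45 ± 0.96), both made by fibroblasts, and Mmp16 (-3.04 ± 0.61) were lower. Normexp took Ctsk to -1.1 and Mmp16, well above background on only 1 tumor array, to -0.36, both without a call. Mmp14, the main membrane collagenase, was not called (-0.37 ± 0.22).

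Differentiation genes of milk secretion and of skin moved in both directions. Of 13 milk genes, 5 were higher and 3 lower (median 0.43). Ltf, the iron-binding lactoferrin, was at -0.03, 1.18 and 0.04 on the normal arrays and 5.32, 5.77 and 4.46 on the tumor arrays (4.79 ± 0.76, adjusted p = 0.000689) and casein Csn1s1 differed by 2.37 ± 0.57, while Lalba, the lactose synthase subunit, was lower (-3.46 ± 0.84, adjusted p = 0.00625) and casein Csn1s2a was above background on normal arrays only (at least 13.2-fold lower). Normexp took Csn1s2a to -0.80 without a call, and Lalba lost its call with slide as a fixed block (-4.12, adjusted p = 0.0598). Wap was at -0.77, 0.38 and -0.23 on the normal arrays and -3.36, 0.27 and -4.09 on the tumor arrays, with tumor mouse B among the normal values, and was not called, and neither was casein Csn2, at -2.89, -3.30 and -5.70 on the normal arrays and -1.93, -1.81 and -1.58 on the tumor arrays. Of 17 cornification genes, 6 were higher and 4 lower (median 1.04). Krt16, a keratin of stressed skin, was at 1.52, 1.09 and 0.36 on the normal arrays and 2.82, 4.31 and 6.58 on the tumor arrays (3.58 ± 1.09, adjusted p = 0.0185), Sprr1b was above background on tumor arrays only (at least 7.61-fold), and involucrin Ivl was lower (-5.87 ± 1.14, adjusted p = 0.00191), at -1.88 under normexp and well above background on only 1 tumor array. Tumor mouse C had the highest Krt16, Sprr1b and Klk7 of all 6 arrays. Krt16 lost its call without tumor mouse C (2.58, adjusted p = 0.068) and without normal mouse D (3.27, adjusted p = 0.0616).

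Metabolic lists had about as many or fewer called members than the 51.6% of all genes. Of 24 cholesterol and fatty acid genes, 5 were lower and 2 higher, with a median of 0.00, and quantile normalization raised the lower count to 11. Besides Idi1, the elongase Elovl6 (-2.19 ± 0.40, adjusted p = 0.00142) and the HMG-CoA synthase Hmgcs1 (-1.31 ± 0.26, adjusted p = 0.00227) were lower, the desaturase Scd1 higher (1.39 ± 0.39, adjusted p = 0.0124; lost under 5 of 28 alternatives, quantile normalization among them) and the fatty acid synthase Fasn not called (0.12 ± 0.35). Of 27 glutathione and antioxidant genes, 11 were higher and 4 lower (median 0.49), against 7 and 6 in the authors' deposited values (median -0.13). Hmox1, heme oxygenase, was at 1.70, 1.48 and 2.19 on the normal arrays and 3.82, 4.54 and 3.9 on the tumor arrays (2.30 ± 0.35, adjusted p = 0.000557), and Mgst2 (2.58 ± 0.49) and Gstt1 (1.79 ± 0.38) rose, whereas Gpx3, a secreted peroxidase, was lower (-4.21 ± 0.41, adjusted p = 5.55e-05) and Nqo1 (-0.01 ± 0.25), Gclc (0.07 ± 0.25) and Gclm (0.17 ± 0.23), targets of NRF2, were not called.

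The array of normal mouse D and that of tumor mouse B shared a slide, which allowed a comparison within it. There 4697 of the 4700 higher and 4723 of the 4735 lower genes had the same sign. Within the slide Msln differed by 6.62, Ddit3 by 4.29, Csf3 by 4.89, Adm by 6.91, Myh11 by -7.70 and Cldn5 by -6.99. As both arrays also entered the test that picked these genes, the agreement of signs was nearly fixed in advance. The counts are therefore no check on an effect of the slide.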

How the data were processed

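RNA of 13 organoid samples was linearly amplified, labelled with Cy3 and hybridised to 14 1-colour Agilent mouse arrays, normal Matrigel mice A and B being run in both batches, per the labels' protocols. The deposited scanner files hold a processed intensity per spot, made by the authors with Feature Extraction (version 9.5 per the file headers, 9.1 per the submitters' processing notes). The authors also deposited log2 values, whose centring is unknown; they served as an alternative.

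Here log2 intensity minus the array's 75th percentile was tested with limma 3.58.1 (R 4.3.3) over the 12 batch 2 arrays in 4 groups of 3, with Benjamini-Hochberg adjustment. A gene was its brightest probe, and it was tested if all arrays of any 1 group had it well above background. RefSeq accessions (GRCm38.p6) named 22944 of 41174 probes (55.7%), and the others kept the array's name. A bound ("at least") sets the bright group against the detection limit of the dim one. A simulation with known changes over 18274 genes recovered 17 of 100 2-fold and 70 of 100 4-fold changes, with 8 false calls. It changed no other genes, whereas 51.6% of genes were called in the data. The adjustment therefore acted differently there, and these rates do not measure the power or error of the comparison reported here. The number of arrays limits the precision, and an exact permutation of 3 against 3 cannot go below p = 0.1. All 12 arrays share a scan day.

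Members and lists were chosen with earlier results of these data known. Named were the 12 largest differences per direction, the 6 largest bounds, up to 4 called members per list and 12 fixed genes, as space allowed. Further list members were named after their values were seen, and some members are not reported here. Alternatives covered scaling, background, filter, probe choice, batch 1 repeats, slide, replicate block and each array left out. Tallies of alternatives for single genes and list medians do not count spike-in scaling without re-centring. A block on the mouse was added after seeing the data, because the titles name the same mice in both gels; deviations of a mouse's 2 arrays correlated at 0.24 and -0.243 for normal A and B and at -0.0583, 0.323 and 0.419 for tumor A, B and C.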

Additional observations from a re-analysis of the deposited data

Results flagged for a closer look

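The tissue difference itself differed between the gels for 14 of the genes named by rule, each by the test of the difference in the fit over both gels (limma, adjusted over all 18274 genes; values are the Matrigel minus the collagen I difference, log2). This fit has no mouse term; with the 5 mice that were in both gels as a fixed block, none of the 14 passed (adjusted p = 0.0824 to 0.153), with differences of the same sign. The tumor arrays in Matrigel were dimmer than those in collagen I, and the part of this gap in the 14 differences was not tested. In 11 of the 14 genes the tumor value was relatively higher in Matrigel. Csf3 (4.27, adjusted p = 0.000677), Ddit3 (3.05, adjusted p = 0.00886) and Trib3 (2.62, adjusted p = 0.00506) passed under all 27 other alternatives counted. Spike-in scaling without re-centring is not counted for any of the 14 genes. Cd68, a macrophage lysosomal marker, had 4.07 (adjusted p = 0.0183) and was lost under 5 of 28 alternatives. Ccl5 had 3.14 (adjusted p = 0.0317) and was lost under 11 of 28. Chac1 had 2.42 (adjusted p = 0.0326) and Elf3, an epithelial ETS factor, 1.51 (adjusted p = 0.035), each lost under 12 of 28. Col18a1 had 1.92 (adjusted p = 0.0376) and Wnt7b 1.94 (adjusted p = 0.0443), each lost under 13 of 28. Hbegf had 2.56 (adjusted p = 0.047) and was lost under 15 of 28. Orm1, above background on tumor arrays alone in Matrigel, had 1.8 (adjusted p = 0.0388) and was lost under 14 of 27.

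In the other 3 genes the tumor value was relatively lower in Matrigel. Idi1, of isoprenoid synthesis, had -2.66 (adjusted p = 0.00816) and was lost under 2 of 28 alternatives. Ctnnd2 had -2.57 (adjusted p = 0.00506; lost under 3 of 27) and Btc -2.28 (adjusted p = 0.0366; lost under 12 of 27). Both were not well above background on any tumor array in Matrigel, so the sizes of their differences depend on dim signals, and normexp turned them to 0.59 and 0.53 without a call.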

How the results depend on the processing

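The count of 9435 genes called in Matrigel stayed within 1.5 times in most settings (6966 to 10227, and 7402 to 9720 with single arrays left out). A like count did not mean the same genes. Of the 9435 calls, 7327 were kept in the same direction with quantile normalization, 7230 in the authors' deposited values and 5375 with normexp. Spike-in scaling kept 4913, against 8815 when re-centred and 9427 with slide as a random block. It was 15957 with spike-in scaling and 12779 of 28784 genes with no filter on dim probes, which adds genes. The count of 481 for the difference between the gels became 211 with quantile normalization, 10 with normexp, 143 in the authors' deposited values, 11719 with spike-in scaling, 665 when these were re-centred on the median gene, 59 with no filter, 2227 with batch 1 repeats averaged in, 1672 and 1348 with slide as a random and a fixed block, 1001 with a trended robust fit and 3146 with array weights. With single arrays left out it ran from 12 to 2081; it was 12, 43 and 38 without normal collagen B, A and C, 2081, 33 and 91 without normal Matrigel A, B and D, 810, 120 and 617 without tumor Matrigel A, B and C, and 69, 738 and 571 without tumor collagen A, B and C. The cause of these shifts was not tested.

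Normal and tumor mice were different animals, and their same-letter Matrigel samples did not deviate together (r = 0.0821 for A and -0.0353 for B). With the letter as a replicate block the counts were 6966 and 33. Within a tissue the titles name the same mice in both gels, and blocking on the mouse, chosen after seeing the data, gave 9474 in Matrigel and 1712 for the difference between the gels as a random replicate block, and 0 for that difference as a fixed one.

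Over the named genes, 3963 values kept direction and side of the threshold, 110 lost the call, 9 gained it and 16 reversed. These tallies, and those of list medians below, leave out spike-in scaling without re-centring. That setting moved the median gene to -1.8, with 178 genes higher and 15779 lower, so few higher calls could be kept under it. Krt8 reversed with quantile normalization (-0.22) and in the authors' values (-0.03). Normexp reversed Btc (0.41), Ccne2 (0.30), Hoxc9 (0.14), Hoxd4 (0.63), Hoxd8 (0.51), Lox (0.40) and Pgr (0.77). Of genes without a call, Acta2 turned with re-centred spike-ins (0.10), batch 1 averaged in (0.052) and slide fixed (0.18), Krt5 with slide fixed (1.16) and Krt14 with the letter block (-0.069). Leaving out 1 tumor array at a time put Acta2 between -0.18 and 0.086 (without B and A) and Cdh1 between -0.67 and 0.21 (without A and C). Of the list medians 778 stayed within the spread between arrays, 88 moved further and 2 turned with both values beyond it: the Hox list under normexp (0.71) and the 12 fixed genes under quantile normalization (-0.30). In all, 59 list medians changed sign, among them leukocyte markers (1.26) and integrins (0.41) under normexp and luminal markers (-0.09) with quantile normalization. Among called genes, 865 were above background on normal arrays alone and 59 on tumor arrays alone. The tumor arrays were dimmer, and the part of this in those counts was not tested.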
